A study of Mus musculus with 15 samples.

Results

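The 32 genes described here are 22 genes of glucose uptake, glycolysis and lactate handling and 10 further genes that respond to low oxygen. They were chosen by name: every array probe whose gene name, current or older, was on the list was taken, which gave 55 of 41174 probes. A filter on dim signals kept 50 of these probes, and each of the 32 genes kept at least 1, of 18705 genes tested in all. Of the 32 genes, 31 were matched by the name or accession in the files. Gapdh was matched only through a gene number in the name of 1 dim probe (387 to 1949 units of sample signal) and is uncertain, since processed copies of Gapdh are common in the mouse genome. Pkm2 is the older symbol, used on the array, of Pkm.

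RNA came from mouse embryonic fibroblasts, the mixed mesenchymal cells grown from minced embryos, taken at 13.5 days from the C57B6 strain and used at passage 3. Wild type cells (4 arrays) were set beside p27 knock-out cells, which lack the cyclin-dependent kinase inhibitor encoded by Cdkn1b (4 arrays), stathmin knock-out cells, which lack the microtubule-destabilising protein encoded by Stmn1 (4 arrays), and double knock-out cells without either protein (3 arrays). All cultures were dense and had been kept without serum for 24 h. Arrays of the same genotype are biological replicates per the labels, which give no oxygen level, no allele and no embryo of origin, so p-values measure only the spread between these 15 samples. On each array the sample carried Cy5 and was hybridised against a common pool of fibroblast RNA in Cy3. All levels below are log2 ratios of sample over that pool, so that 0 is the level of the pool and a step of 1 is a factor of 2.

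Cells sense oxygen through prolyl hydroxylases, the Egln enzymes, which mark the alpha subunits of hypoxia-inducible factor (HIF) for destruction through the Vhl ubiquitin ligase. When oxygen is short the subunits persist, pair with Arnt and bind short elements near their target genes, among them glucose transporters, most enzymes of glycolysis, lactate dehydrogenase, and genes for pH control, mitophagy and blood vessel growth. Embryonic fibroblasts without Hif1a lose much of this induction, and the cell type has long been used to study it.

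The element bound by HIF has the core ACGTG or GCGTG. Promoters were read from RefSeq (GRCm38.p6) as 250 bases before to 50 bases after a gene's start, at the first start that its table gives, and were used for 30 of the 32 genes, without Slc2a3 and Ndrg1. That start is not always the edge of the annotated gene: for Pfkfb4 and Ldha it lies 3630 and 3530 bases inside it. The 6 promoters below belong to the 4 genes whose ratio varied most over the 15 arrays and the 2 whose ratio varied least. Capitals mark every match to either core on either strand (CACGT and CACGC on the reverse strand), and the E-box CACGTG holds ACGTG on both strands.
Adm (chr7:110627407-110627706, plus strand): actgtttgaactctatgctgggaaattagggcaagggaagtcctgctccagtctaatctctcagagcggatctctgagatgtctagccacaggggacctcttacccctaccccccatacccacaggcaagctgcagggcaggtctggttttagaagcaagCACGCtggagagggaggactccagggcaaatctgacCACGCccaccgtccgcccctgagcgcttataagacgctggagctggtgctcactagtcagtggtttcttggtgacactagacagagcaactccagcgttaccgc
Car9 (chr4:43506776-43507075, plus strand): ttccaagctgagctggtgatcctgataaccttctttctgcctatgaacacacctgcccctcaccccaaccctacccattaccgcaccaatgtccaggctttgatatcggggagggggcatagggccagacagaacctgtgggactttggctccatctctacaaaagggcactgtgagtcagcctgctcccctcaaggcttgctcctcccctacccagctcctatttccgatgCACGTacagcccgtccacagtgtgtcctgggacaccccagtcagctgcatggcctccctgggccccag
Bnip3 (chr7:138909457-138909756, minus strand): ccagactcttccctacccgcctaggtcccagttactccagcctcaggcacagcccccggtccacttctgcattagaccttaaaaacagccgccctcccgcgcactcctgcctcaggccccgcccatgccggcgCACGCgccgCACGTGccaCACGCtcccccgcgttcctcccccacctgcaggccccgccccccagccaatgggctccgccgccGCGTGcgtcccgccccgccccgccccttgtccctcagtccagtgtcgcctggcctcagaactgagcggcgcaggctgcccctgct
Aldoc (chr11:78322823-78323122, plus strand): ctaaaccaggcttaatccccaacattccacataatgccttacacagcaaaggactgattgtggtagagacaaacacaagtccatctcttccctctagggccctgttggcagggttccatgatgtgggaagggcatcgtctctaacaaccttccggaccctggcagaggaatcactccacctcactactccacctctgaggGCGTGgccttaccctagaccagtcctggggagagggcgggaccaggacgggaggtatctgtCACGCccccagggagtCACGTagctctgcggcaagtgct
Pfkm (chr15:98092339-98092638, plus strand): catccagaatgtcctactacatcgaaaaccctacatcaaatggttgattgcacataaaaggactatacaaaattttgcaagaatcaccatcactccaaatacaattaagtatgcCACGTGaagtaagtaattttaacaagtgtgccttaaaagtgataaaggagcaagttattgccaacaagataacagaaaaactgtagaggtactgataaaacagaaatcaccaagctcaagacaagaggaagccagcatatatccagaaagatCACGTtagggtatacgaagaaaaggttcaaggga
Pfkfb4 (chr9:108991652-108991951, plus strand): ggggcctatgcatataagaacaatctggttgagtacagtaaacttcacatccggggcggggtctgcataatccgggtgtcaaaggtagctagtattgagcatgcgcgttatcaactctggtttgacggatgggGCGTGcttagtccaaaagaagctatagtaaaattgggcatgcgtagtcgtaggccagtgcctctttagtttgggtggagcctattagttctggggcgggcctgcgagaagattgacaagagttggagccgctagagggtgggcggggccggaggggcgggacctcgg
Adm has 2 core matches, Car9 has 1, Bnip3 has 5 (with 1 CACGTG), Aldoc has 3, Pfkm has 3 and Pfkfb4 has 1. At least 1 core match was found in 23 of the 30 promoters (76.7%) and in 43.8% of the 27025 promoters of the whole table. The core ACGTG alone was found in 17 of the 30 (56.7%) and in 19.7% of all. The most matches, 7, were in the Ldha promoter, and Eno2, Tpi1, Gpi1, Hk1, Aldoa, Pkm2 and Vegfa had none in the window read, although Hk1, Aldoa, Pkm2 and Vegfa had a match at another of their starts. These are matches of letters, not binding sites, and no test was made on them.

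Between 59.3 and 78.9% of spots on an array were well above background in the sample channel and 0.0945 to 0.265% were saturated, and with 3 or 4 arrays a genotype the 95% interval of a typical gene's difference reached 0.48 to 0.52 to either side. One Stmn1 probe averaged 0.76 ± 0.10 (SD, n = 4) in wild type cells and -2.78 ± 0.15 (SD, n = 4) in stathmin knock-out cells, with -2.77 ± 0.08 (SD, n = 3) in double knock-out cells. A second tested Stmn1 probe overlapped between these groups, at -0.10 ± 0.34 (SD, n = 4), -0.51 ± 0.36 (SD, n = 4) and -0.24 ± 0.19 (SD, n = 3). The tested Cdkn1b probe did not separate p27 knock-out arrays (-1.10 to 0.05) from wild type arrays (-0.22 to 0.93), and whether it lies in the deleted part is not given. A dim Cdkn1b probe, well above background on 3 arrays and not tested, did separate them. It was at 0.22 to 0.36 in wild type, -0.20 to -0.10 in p27 knock-out and -0.18 to -0.08 in double knock-out cells. Its stathmin knock-out values, from -0.13 to 0.53, reached into the range of the p27 knock-out. Another untested Cdkn1b probe, well above background on 2 arrays, overlapped between p27 knock-out (-0.33 to 0.36) and wild type arrays (-0.13 to -0.01). All of 15 fibroblast markers were well above background on every array, Col1a1, Col1a2 and Vim among them. Wild type 3 and wild type 4 were unusually alike, with a correlation over all tested genes of 0.84 against 0.34 for wild type 1 and wild type 2. Fewer cells of a type and less RNA per cell cannot be told apart in these bulk samples.

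The levels of most of these genes varied widely between cultures of 1 knock-out genotype and less between wild type cultures. None of the 32 genes passed the test between genotypes. The median over the 32 genes was 0.96 on p27 knock-out 2, with 30 genes above 0, and 0.47 on p27 knock-out 3, also with 30 genes above 0. It was 0.44 on stathmin knock-out 4, with 27 genes above 0, then 0.11 on double knock-out 1 and -0.08 on stathmin knock-out 3. It lay between -0.67 and -0.27 on the other 10 arrays, the 4 wild type arrays among them. On the same arrays the median over all tested genes lay between -0.04 and 0.01. The median was thus above 0 on some but not all arrays of each knock-out, and on no wild type array. Of the 32 genes, 19 reached their highest level on p27 knock-out 2 and 5 on p27 knock-out 3, and 11 had their lowest level on stathmin knock-out 2.

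**Figure D1:**
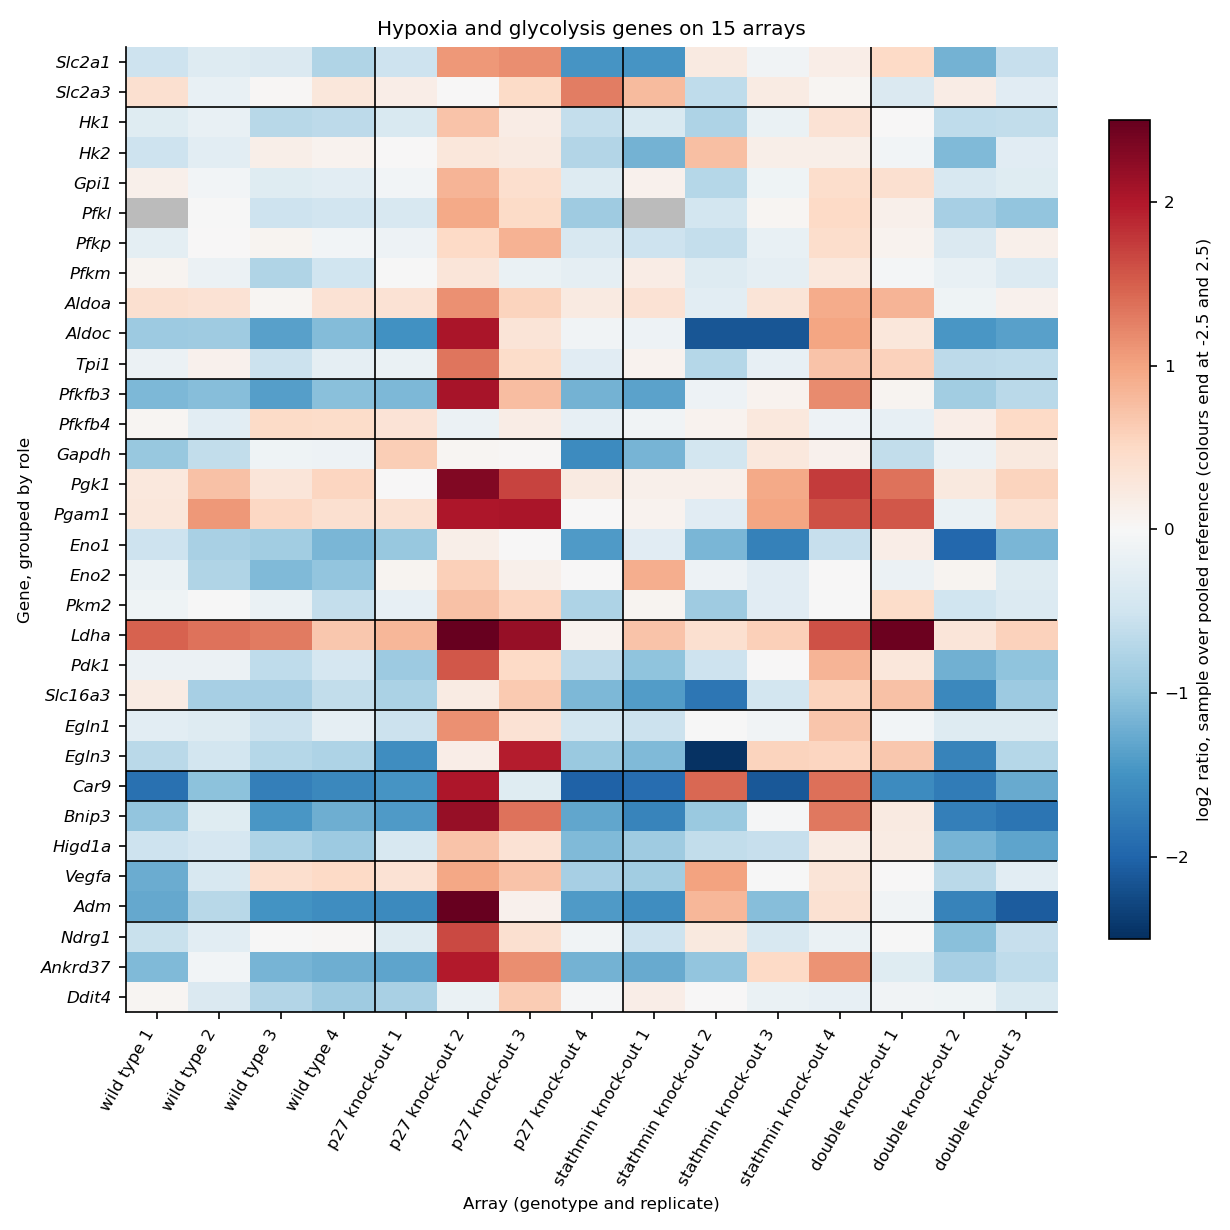
Log2 ratio of sample over pooled reference (colour) for the 32 genes (rows, grouped by role) on 15 arrays (columns, grouped by genotype); red is above the pool, blue below, and grey marks the 2 arrays on which Pfkl has no value. Most rows are red on stathmin knock-out 4 and on p27 knock-out 2 and 3, and pale or blue on p27 knock-out 1 and p27 knock-out 4.

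Among the genes that respond to low oxygen, Bnip3, a mitochondrial protein that promotes removal of mitochondria, followed this pattern closely. Its ratio was -0.995, -0.31, -1.45 and -1.22 on wild type 1 to 4, and -1.42, 2.18, 1.36 and -1.31 on p27 knock-out 1 to 4. It was -1.66, -0.93, -0.03 and 1.31 on stathmin knock-out 1 to 4, and 0.23, -1.72 and -1.83 on double knock-out 1 to 3. Cultures 2 and 3 of the p27 knock-out and culture 4 of the stathmin knock-out were above 1, stathmin knock-out 3 and double knock-out 1 lay near 0, and the other 10 arrays were below. The raw sample signal of Bnip3 was 245000 and 192000 units on p27 knock-out 2 and 3 against 30600 and 44100 on p27 knock-out 1 and 4. Its reference signal was 27700 and 35000 units on p27 knock-out 2 and 3 against 56500 and 56600 on p27 knock-out 1 and 4. Part of the difference in ratio thus lay in the reference channel. Higd1a, a small mitochondrial protein that helps cells to endure low oxygen, ran from -1.31 on double knock-out 3 to 0.72 on p27 knock-out 2, with a median of -0.58.

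Car9, the carbonic anhydrase on the cell surface that disposes of acid, had the widest range of raw sample signal, 33.1-fold from lowest to highest array. Its ratio was -1.87, -1.03, -1.72 and -1.61 on wild type 1 to 4 and -1.47, 2.03, -0.30 and -2.01 on p27 knock-out 1 to 4. It was -1.90, 1.44, -2.13 and 1.37 on stathmin knock-out 1 to 4 and -1.57, -1.74 and -1.27 on double knock-out 1 to 3. Car9 was therefore high on stathmin knock-out 2, where Bnip3 was low, so that the oxygen-responsive genes did not all follow the same cultures. Its reference signal stayed within 3770 to 4580 units on all 15 arrays.

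The secreted factors were Adm, the vasodilator peptide adrenomedullin, and Vegfa, the main growth factor of blood vessels. The Adm ratio had the largest spread of the set, an SD of 1.45 over the 15 arrays, from -2.08 on double knock-out 3 to 3.56 on p27 knock-out 2. Part of that spread lay in the reference channel, where the raw Adm signal varied 4.09-fold. In the sample channel alone the SD of log2 signal was 1.07 for Adm. It was larger for Car9 (1.42), Aldoc (1.21), Ankrd37 (1.13) and Egln3 (1.10). Like Car9, Adm was above 0 on stathmin knock-out 2 (0.84) as well as on stathmin knock-out 4 (0.38). Vegfa spread less, with an SD of 0.70, from -1.25 on wild type 1 to 1.00 on stathmin knock-out 2. Its wild type arrays were themselves apart, at -1.25 and -0.40 on wild type 1 and 2 and at 0.43 and 0.50 on wild type 3 and 4.

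The oxygen sensors Egln1 and Egln3 are both enzymes of HIF turnover and targets of HIF. Egln1 was near the level of the pool on most arrays, from -0.54 on stathmin knock-out 1 to 1.14 on p27 knock-out 2, with a median of -0.27. Egln3 spread over 4.42, from -2.46 on stathmin knock-out 2 to 1.96 on p27 knock-out 3. On p27 knock-out 2, where most of the set peaked, Egln3 stood at 0.16. Ankrd37, an ankyrin-repeat protein induced through HIF, was between -1.32 and 1.98, and was above 1 only on stathmin knock-out 4 and on p27 knock-out 2 and 3.

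Ndrg1, a stress-induced protein of differentiating cells, was -0.56, -0.26, -0.01 and 0.03 on wild type 1 to 4 and -0.31, 1.65, 0.40 and -0.09 on p27 knock-out 1 to 4. It was -0.52, 0.25, -0.39 and -0.16 on stathmin knock-out 1 to 4 and -0.02, -1.05 and -0.57 on double knock-out 1 to 3. The p27 knock-out and double knock-out arrays overlapped. Ddit4, an inhibitor of mTORC1 signalling, varied little by comparison, from -0.89 on wild type 4 to 0.64 on p27 knock-out 3.

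**Figure D2:**
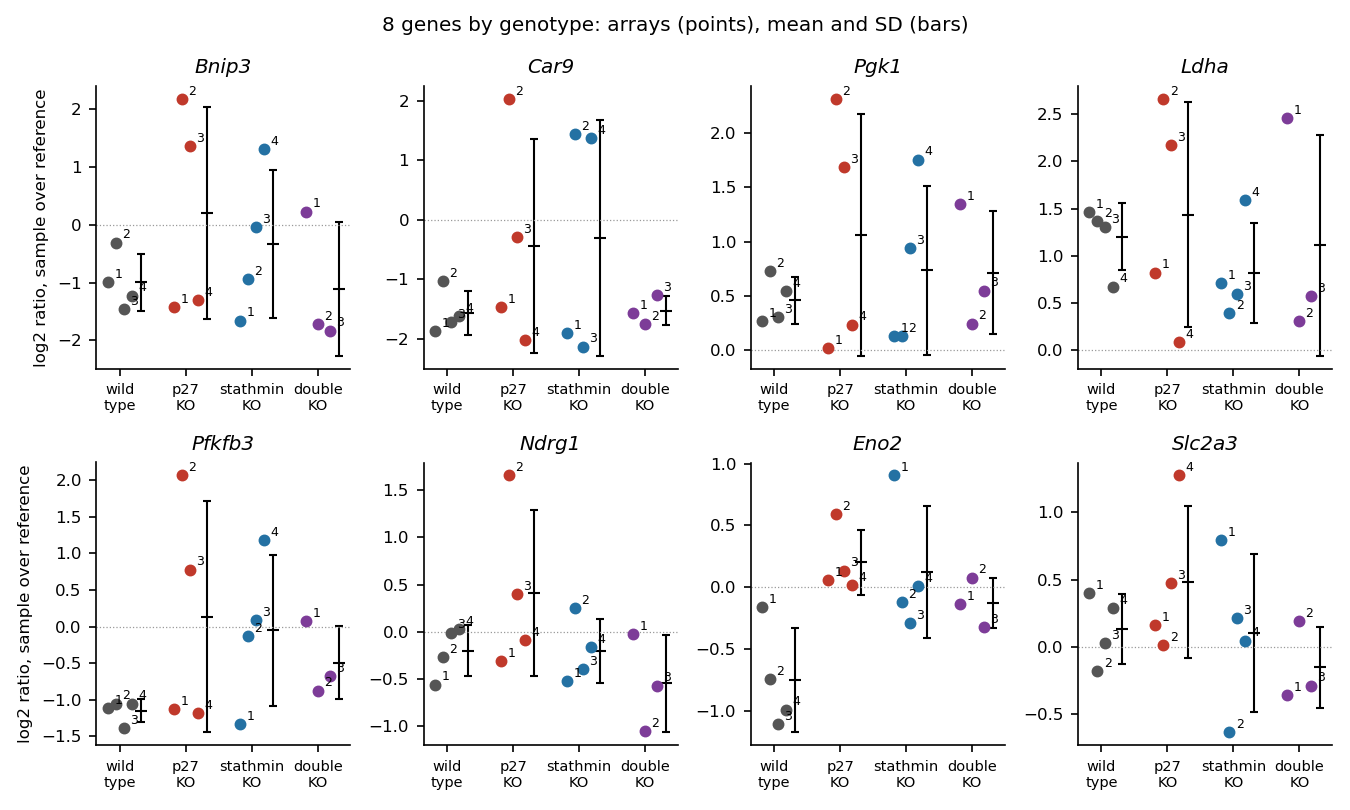
Log2 ratio of sample over pooled reference for 8 of the genes, each array a point numbered by its replicate and coloured by genotype, with the mean and SD of the genotype as bars beside it (n = 4, and n = 3 for the double knock-out). For Bnip3, Pgk1 and Pfkfb3, p27 knock-out cultures 2 and 3 stand above p27 knock-out cultures 1 and 4; for Eno2, all p27 knock-out arrays stand above all wild type arrays.

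Glucose enters fibroblasts mainly through Slc2a1 (Glut1), and Slc2a3 (Glut3) is a transporter of higher affinity. Slc2a1 was 1.09 and 1.17 on p27 knock-out 2 and 3 and -0.52 and -1.47 on p27 knock-out 1 and 4, and was between -0.75 and -0.32 on the wild type arrays. Slc2a3 went the other way: it was highest on p27 knock-out 4 (1.27), where Slc2a1 was -1.47, and on stathmin knock-out 1 (0.79), where Slc2a1 was -1.48. Its lowest level was -0.63 on stathmin knock-out 2. Over 15 arrays with genotype means removed, Slc2a3 correlated with Slc2a1 at -0.73.

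Of the enzymes that prepare glucose for cleavage, Hk1, the hexokinase expressed in most tissues, ranged from -0.78 to 0.72. Hk2, the inducible hexokinase, ranged from -1.18 on stathmin knock-out 1 to 0.75 on stathmin knock-out 2, and so did not share its highest array with Hk1. Gpi1, glucose-6-phosphate isomerase, ranged from -0.72 to 0.84. Of the phosphofructokinase subunits, which carry out the committed step of glycolysis, Pfkl ranged from -0.99 to 0.94 with no value on wild type 1 and stathmin knock-out 1, Pfkp from -0.60 to 0.86 and Pfkm from -0.75 to 0.30. Pfkm, the muscle subunit, was among the 2 genes with the least spread, an SD of 0.28.

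The aldolases split fructose-1,6-bisphosphate. Aldoa, the form of muscle and most cells, was above the pool on 13 of the 15 arrays and ranged from -0.26 to 1.14. Aldoc, the form best known from brain, had an SD of 1.18, from -2.14 on stathmin knock-out 2 to 2.04 on p27 knock-out 2. Tpi1, triosephosphate isomerase, ranged from -0.72 to 1.33.

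The bifunctional enzymes Pfkfb3 and Pfkfb4 set the level of fructose-2,6-bisphosphate, the strongest activator of phosphofructokinase, and Pfkfb3 is the one whose kinase activity dominates. Pfkfb3 was -1.12, -1.05, -1.39 and -1.05 on wild type 1 to 4 and -1.13, 2.07, 0.78 and -1.19 on p27 knock-out 1 to 4. It was -1.34, -0.13, 0.09 and 1.18 on stathmin knock-out 1 to 4 and 0.07, -0.88 and -0.67 on double knock-out 1 to 3. The wild type arrays were tight and low, and the 3 double knock-out arrays lay above all of them, whereas p27 knock-out 1 and 4 lay among them. Pfkfb4 had the smallest spread of the set, an SD of 0.27, from -0.27 on wild type 2 to 0.51 on double knock-out 3.

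In the pay-off phase, Pgk1 and Pgam1, phosphoglycerate kinase and mutase, were on or above the level of the pool on nearly all arrays. Pgk1 was 0.26, 0.73, 0.30 and 0.54 on wild type 1 to 4 and 0.02, 2.32, 1.68 and 0.23 on p27 knock-out 1 to 4. It was 0.13, 0.13, 0.94 and 1.76 on stathmin knock-out 1 to 4 and 1.35, 0.24 and 0.55 on double knock-out 1 to 3. The arrays above 1 were stathmin knock-out 4, p27 knock-out 2 and 3, and double knock-out 1, of which the last was below 1 for Bnip3. Pgam1 ranged from -0.28 on stathmin knock-out 2 to 2.05 on p27 knock-out 3. Eno1, the enolase of most tissues, stayed below the pool on most arrays, with a median of -0.86 and a highest value of 0.17 on double knock-out 1. Pkm2, pyruvate kinase, ranged from -0.88 to 0.73, and the uncertain Gapdh probe from -1.58 to 0.62.

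Eno2, the enolase known as neuron-specific, did not follow the other genes. It lies at chr6:124760053-124769673 (GRCm38.p6). It was -0.16, -0.75, -1.11 and -0.99 on wild type 1 to 4 and 0.06, 0.59, 0.13 and 0.02 on p27 knock-out 1 to 4. It was 0.90, -0.12, -0.29 and 0.01 on stathmin knock-out 1 to 4 and -0.14, 0.08 and -0.32 on double knock-out 1 to 3. All p27 knock-out arrays lay above all wild type arrays, and wild type 1 was the wild type array nearest to the knock-outs. Slc2a3, Tpi1 and Gapdh lie in the same stretch of chromosome 6, from 122727809 to 125166467, and Cdkn1b lies at chr6:134920401-134925525. Slc2a1, Car9 and Eno1 lie on chromosome 4, as does Stmn1.

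Pyruvate and lactate are handled by Ldha, lactate dehydrogenase A, Pdk1, the kinase that shuts pyruvate out of mitochondria, and Slc16a3 (Mct4), the exporter of lactate. Ldha was 1.47, 1.36, 1.30 and 0.67 on wild type 1 to 4 and 0.82, 2.66, 2.17 and 0.09 on p27 knock-out 1 to 4. It was 0.71, 0.40, 0.59 and 1.59 on stathmin knock-out 1 to 4 and 2.46, 0.31 and 0.57 on double knock-out 1 to 3. Ldha was above the pool on all 15 arrays, unlike Pdk1 (-1.20 to 1.56) and Slc16a3 (-1.81 to 0.73). Slc16a3 and Ldha shared a high value on double knock-out 1, at 0.73 and 2.46.

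Some bright probes were saturated on some arrays, and some varied in the reference channel. The Pgk1 probe was saturated in the sample channel on 4 arrays, the Ldha probe on 3 and the Pgam1 probe on 0. Over the 15 arrays the raw sample signal of Ldha varied 1.73-fold, and its reference signal, which comes from the same pool throughout, varied 4.57-fold. The Ldha reference signal was 39000 and 48500 units on p27 knock-out 2 and 3 and 122000 and 178000 on p27 knock-out 1 and 4. On the log2 scale the SD over arrays was 0.64 in the reference channel and 0.22 in the sample channel for Ldha, 0.46 and 0.26 for Pgk1, and 0.53 and 0.26 for Pgam1. The ratios of these bright genes thus varied more through the reference channel than through the sample channel. Reference signal also varied for probes saturated on no array, 4.09-fold for Adm, 2.45-fold for Slc2a1 and 2.11-fold for Bnip3. Why the reference signal varied was not tested. For Car9, Pfkfb3 and Eno2 the reference signal varied 1.22-fold, 1.29-fold and 1.24-fold, and the sample signal 33.1-fold, 15.1-fold and 6.55-fold.

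Spots and probes of a gene mostly gave the same order of arrays. Gpi1, Pgk1 and Vegfa each had a probe printed 10 times on every array, and the median SD among those spots was 0.06, 0.10 and 0.08, against an SD between arrays of 0.41, 0.71 and 0.59. Of the 14 genes with more than 1 tested probe, both Eno2 probes correlated at 0.97, the Pgk1 probes at 0.99 and the Vegfa probes at 0.93 to 0.96 over 15 arrays. The brightest probe correlated least with others for Gpi1 (0.15, where the other probe had an SD of 0.08), Pfkp (0.47 and 0.54) and Hk1 (0.53 to 0.71). Probes that correlated could still differ in spread. For Aldoc and Pfkfb3 the other probe spread less, with SDs of 0.59 and 0.54 against 1.18 and 1.04. For Pdk1 and Higd1a it spread more, with SDs of 1.07 and 0.87 against 0.77 and 0.60.

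None of the 32 genes passed the threshold, an adjusted p under 0.05 in limma, in any of 7 comparisons or in the F test over the 4 genotypes. In the p27 knock-out against the wild type, 0 of 32 were called beside 0 of 18676 tested genes (0%), and 1 had an unadjusted p under 0.05 (3.12%) beside 5.72% of all genes. A count of 1 gene is too small to set apart from that background. Differences from the wild type were above 0 for 31 of the 32 genes, with a median of 0.47, beside 52.7% and 0.01 for all tested genes. Since the genes vary together from array to array, these signs are not separate pieces of evidence. The median was 0.20 without p27 knock-out 2 and 0.70 without p27 knock-out 4.

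Eno2 had the smallest p in this comparison, a difference of 0.95 (SE 0.26, 95% interval 0.38 to 1.52, adjusted p 0.795). Its second probe gave 0.93. Eno2 was the 1 gene whose p27 knock-out and wild type arrays did not overlap (3.12%), beside 2.25% of all genes. Pfkfb3 differed by 1.29 (95% interval -0.13 to 2.70, adjusted p 0.795), and by 0.64 without p27 knock-out 2. Ndrg1 differed by 0.61 (95% interval -0.18 to 1.40, adjusted p 0.795), and by 0.20 without p27 knock-out 2.

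**Figure D3:**
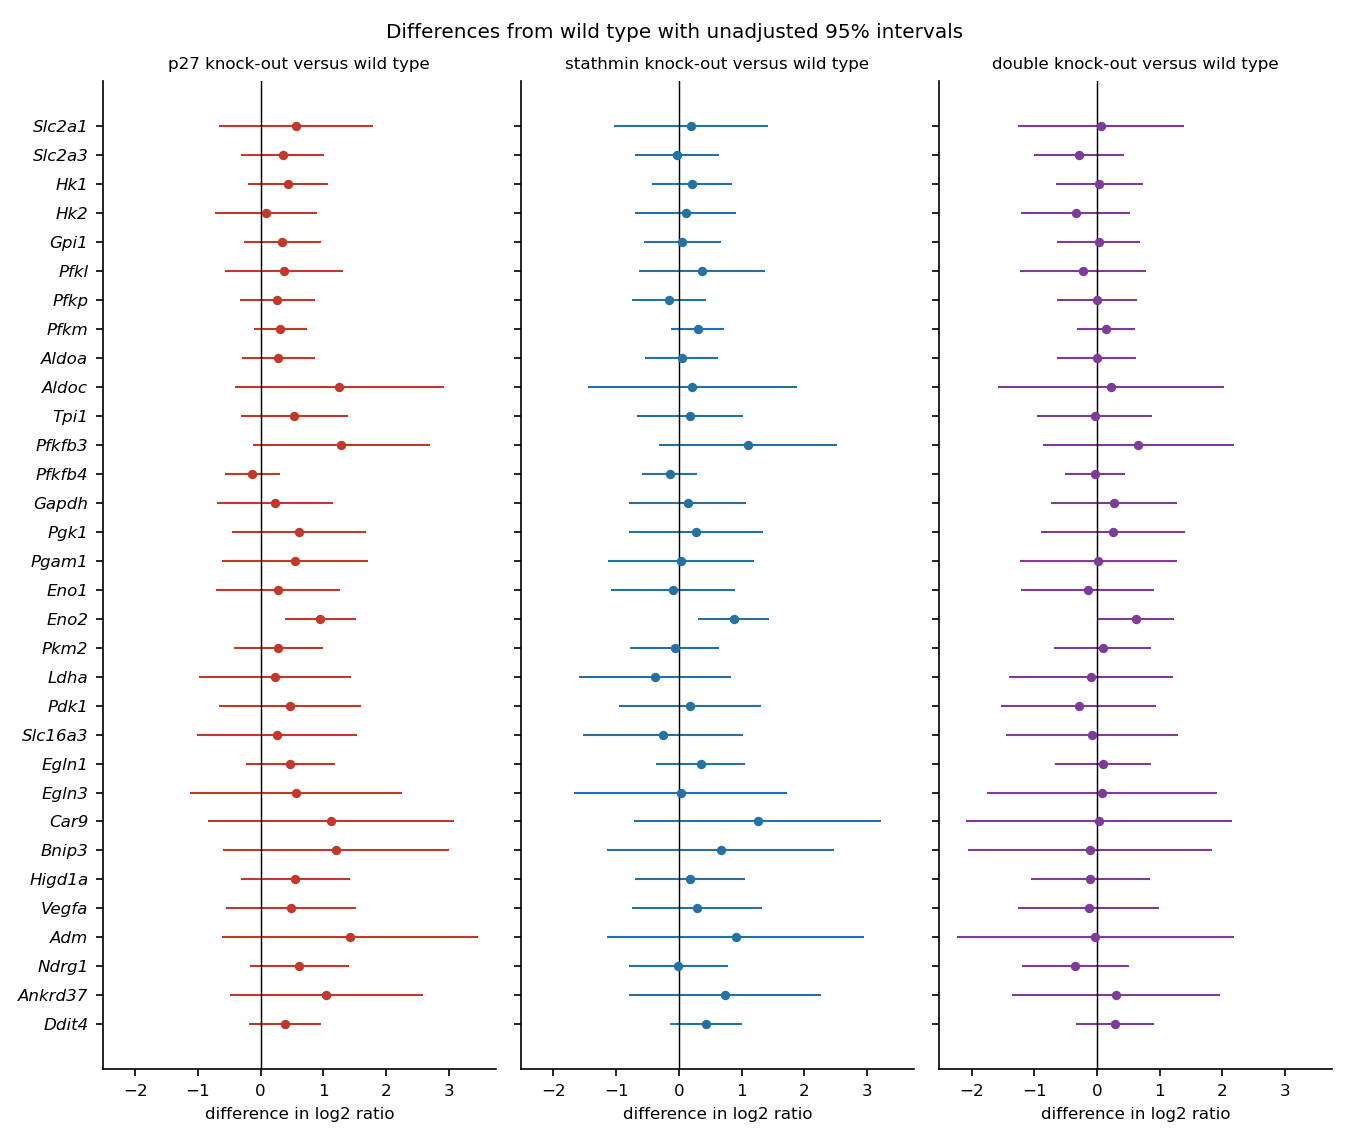
Difference in log2 ratio from the wild type (horizontal axis) for each of the 32 genes (rows, grouped by role), with unadjusted 95% intervals from limma, for the p27 knock-out, the stathmin knock-out and the double knock-out. Nearly all points of the p27 knock-out lie to the right of 0, but in each of the 3 panels only the Eno2 interval leaves out 0. The 3 panels share the wild type arrays.

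In the stathmin knock-out against the wild type, 0 of 32 genes were called by limma beside 0.00535% of 18683 genes, and 1 of 32 had an unadjusted p under 0.05 beside 4.77%. That gene was again Eno2, with a difference of 0.88 (SE 0.26, 95% interval 0.31 to 1.44, adjusted p 0.907). Stathmin knock-out 1 held the highest Eno2 level of all 15 arrays, and 3 of the 4 stathmin knock-out arrays lay above all wild type arrays. Pfkfb3 differed by 1.10 (95% interval -0.31 to 2.52, adjusted p 0.907), which was 0.695 without stathmin knock-out 4 and 0.72 over the mean of its tested probes. Ddit4 differed by 0.44 (95% interval -0.14 to 1.01, adjusted p 0.907). No gene of the set had groups that did not overlap, beside 3.04% of all genes. Over the 32 genes, 24 differences were above 0, with a median of 0.18 that was -0.015 without stathmin knock-out 4, 0.29 without stathmin knock-out 1 and 0.31 without stathmin knock-out 2.

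In the double knock-out against the wild type, 0 of 32 genes were called by limma beside 0% of 18683 genes, and 1 of 32, Eno2, had an unadjusted p under 0.05 beside 2.33%. Eno2 differed by 0.62 (SE 0.28, 95% interval 0.01 to 1.24, adjusted p 1). Ddit4 differed by 0.29 (95% interval -0.33 to 0.91, adjusted p 1), which was 0.47 without wild type 1 and 0.155 without wild type 4. Pfkfb3 differed by 0.66 (95% interval -0.87 to 2.19, adjusted p 1), which was 0.377 without double knock-out 1 and 0.372 over the mean of its tested probes. Pfkfb3 was the 1 gene whose groups did not overlap (3.12%), beside 6.44% of all genes. The median over the 32 genes was 0.0128, with 17 above 0 and 15 below, and moved to -0.29 without double knock-out 1 and to 0.18 without double knock-out 2. Leaving out double knock-out 3 gave 0.14, wild type 2 gave 0.109, wild type 3 gave -0.00912 and wild type 4 gave -0.0217. The 3 comparisons with the wild type share its 4 arrays.

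Ndrg1 led the comparison of the double knock-out with the p27 knock-out, with a difference of -0.96 (SE 0.40, 95% interval -1.81 to -0.10, adjusted p 1), which was -0.545 without p27 knock-out 2. It was the 1 gene with an unadjusted p under 0.05, beside 3.01% of all genes, and 0 of 32 were called, beside 0%. Higd1a differed by -0.66 (95% interval -1.60 to 0.29, adjusted p 1) and Slc2a3 by -0.63 (95% interval -1.35 to 0.08, adjusted p 1). Slc2a3 moved to -0.37 without p27 knock-out 4. Higd1a moved to -0.38 without p27 knock-out 2, -0.99 without p27 knock-out 4, -1.14 without double knock-out 1 and -0.38 without double knock-out 3. No gene had groups that did not overlap, beside 3.18% of all genes. Of the 32 differences 30 were below 0, with a median of -0.45 that was -0.90 without double knock-out 1, -0.73 without p27 knock-out 4, -0.23 without double knock-out 2 and -0.19 without p27 knock-out 2.

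In the double knock-out against the stathmin knock-out, 0 of 32 genes were called beside 0%, 0 of 32 had an unadjusted p under 0.05 in limma beside 3.89%, and 0 had groups that did not overlap beside 5.36%. The smallest p belonged to Pfkl (-0.59, 95% interval -1.60 to 0.41), Car9 (-1.22, 95% interval -3.34 to 0.90) and Hk2 (-0.45, 95% interval -1.32 to 0.42), each with an adjusted p of 1. Car9 moved to -0.64 without stathmin knock-out 2 and -0.67 without stathmin knock-out 4, the 2 cultures of that genotype with high Car9, and to -0.70 with slide as a block. Pfkl rested on 3 stathmin knock-out arrays, and moved to -0.36 without stathmin knock-out 4, -0.94 without double knock-out 1 and -0.38 without double knock-out 3. Hk2 moved to -0.14 without double knock-out 2, -0.19 without stathmin knock-out 2 and -0.83 without stathmin knock-out 1. The median of the 32 differences was -0.17 and became 0.00512 without stathmin knock-out 4, -0.52 without double knock-out 1 and -0.26 without stathmin knock-out 2. It became -0.0727 without double knock-out 2 and -0.0663 without double knock-out 3.

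In the p27 knock-out against the stathmin knock-out, 0 of 32 genes were called beside 0.00535%, 0 had an unadjusted p under 0.05 beside 1.55%, and 0 had groups that did not overlap beside 0.58%. Ndrg1 differed by 0.62 (95% interval -0.17 to 1.41), Pfkp by 0.42 (95% interval -0.17 to 1.02) and Aldoc by 1.04 (95% interval -0.62 to 2.71), each with an adjusted p of 1 in limma. Ndrg1 moved to 0.205 without p27 knock-out 2, and Pfkp to 0.20 without p27 knock-out 3 and 0.64 without stathmin knock-out 4. Aldoc ranged from 0.42 without p27 knock-out 2 to 1.65 without stathmin knock-out 4, and was 1.61 without p27 knock-out 1, 0.61 without stathmin knock-out 2 and 0.61 without stathmin knock-out 3. The median over the 32 genes was 0.32, and 0.00943 without p27 knock-out 2. It was 0.15 without p27 knock-out 3, stathmin knock-out 1 or stathmin knock-out 2, and 0.491 to 0.585 without p27 knock-out 1, stathmin knock-out 4 or p27 knock-out 4.

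The interaction asks whether loss of both proteins differs from the sum of the single losses. It was called for 0 of 32 genes beside 0%, and 1 of 32 had an unadjusted p under 0.05 beside 7.36%. Eno2 had an interaction of -1.21 (SE 0.39, 95% interval -2.04 to -0.37, adjusted p 0.651), since it stood above the wild type by a like amount in each single knock-out and in the double knock-out. Pfkfb3 had -1.73 (95% interval -3.81 to 0.35, adjusted p 0.673) and Ndrg1 -0.95 (95% interval -2.12 to 0.21, adjusted p 0.676), which moved to -1.09 and -0.54 without p27 knock-out 2. The median interaction was -0.62, and -0.99 without double knock-out 1. In the F test over all genotypes, 0 of 32 genes were called beside 0.00535%, and Eno2 alone had an unadjusted p under 0.05 beside 2.94%. After Eno2 (F test p 0.012 from limma), the smallest F test p-values were those of Ndrg1 (0.143), Pfkfb3 (0.255), Slc2a3 (0.326) and Pfkm (0.376).

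Each slide held arrays of several genotypes, so differences can be read within slides. The median over the 32 genes of p27 knock-out minus wild type was -0.09, 1.09, 0.99 and -0.19 on slides 1 to 4. That of stathmin knock-out minus wild type was -0.14, -0.40, 0.36 and 0.93. That of double knock-out minus wild type was 0.54, -0.22 and -0.03 on slides 1, 3 and 4. Each of these medians thus had either sign depending on the slide. Eno2 was above the wild type on every slide in each single knock-out, by 0.22 to 1.34 and by 0.62 to 1.07, and in the double knock-out by 0.02 to 1.19.

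Spread within a genotype was widest in the p27 knock-out. The median SD over the 32 genes was 0.27 in the wild type, 0.82 in the p27 knock-out, 0.61 in the stathmin knock-out and 0.51 in the double knock-out. Over all tested genes it was 0.23, 0.35, 0.32 and 0.21. In 28 of the 32 genes (87.5%) the SD was larger in the p27 knock-out than in the wild type, beside 71% of all genes. The same count, 28 of 32 (87.5%), had a larger SD in the stathmin knock-out than in the wild type, beside 66.8% of all genes. The smallest SD was that of the wild type for 25 of the 32 genes, in a group where wild type 3 and 4 were alike.

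Once the genotype means were removed, the genes still moved together over the 15 arrays. Over the 496 pairs of the 32 genes the median correlation was 0.59, and 56.5% of pairs were over 0.5, against 0.00098 and 10% over all pairs of tested genes. Without p27 knock-out 2 and 3 the median was 0.50 and the share 49.8%. These correlations are a description over arrays that share a reference pool and a loess fit each, and no test was made on them. With the mean of the other genes, 10 of the 32 genes correlated over 0.9, among them Bnip3 (0.97), Pgk1 (0.97), Pdk1 (0.96), Pfkl (0.96) and Pfkfb3 (0.94). Of the rest, 14 lay over 0.5, 6 between 0 and 0.5, and Slc2a3 (-0.475) and Pfkfb4 (-0.34) below 0.

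Within that pattern some genes formed pairs of their own. Hk2 and Vegfa correlated with each other at 0.89 but with the mean of the other genes at only 0.465 and 0.448, and each ran against Slc2a3, at -0.85 and -0.79. Eno2 correlated with the mean of the others at 0.10 and with Pfkm at 0.76. Adm and Ndrg1 correlated at 0.90. Bnip3 correlated with Pdk1 at 0.98 and with Pgk1 at 0.97.

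**Figure D4:**
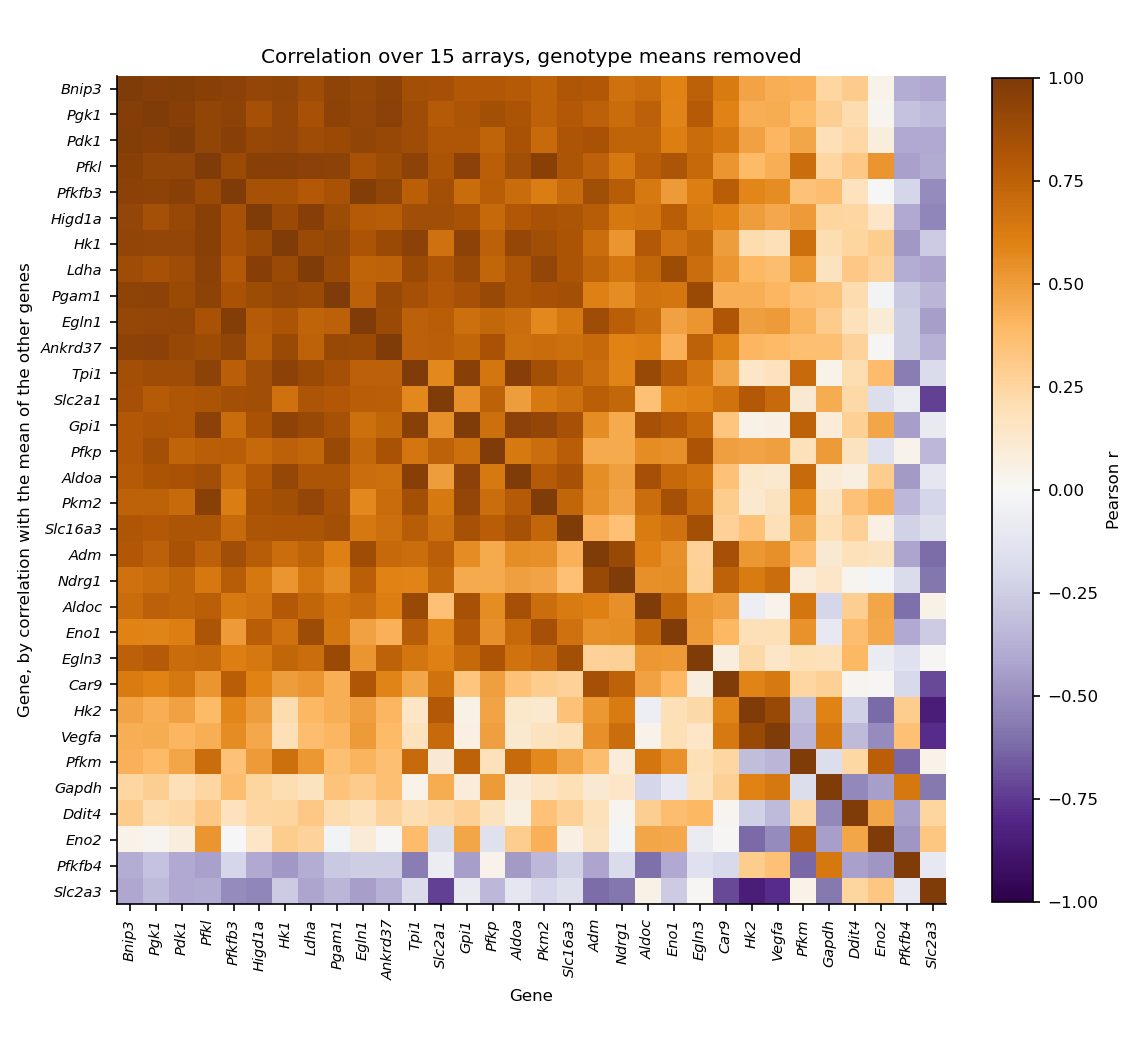
Pearson correlation between each pair of the 32 genes over 15 arrays with genotype means removed (colour), rows and columns in order of a gene's correlation with the mean of the other genes. A block from Bnip3 to Egln3 is positive throughout, while Hk2 and Vegfa pair with each other and Slc2a3 and Pfkfb4 are negative against most of the block.

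Other genes of the pathways were read from lists of 43 further hypoxia genes, of which 38 were tested, and of 35 further genes of glucose metabolism, of which 28 were tested. None of either list was called in any comparison. In the p27 knock-out against the wild type, 28 of the hypoxia genes were above 0 and 9 below (median 0.24), and Cxcl12 had no value. Of the glucose genes 19 were above and 9 below (median 0.12), beside 52.7% of all genes above 0. In the stathmin knock-out, 30 hypoxia genes were above and 8 below (median 0.20), and 15 glucose genes above and 13 below (median 0.02), beside 51.9%. In the double knock-out these were 20 and 18, and 12 and 16, beside 49.3%. By the F test, the hypoxia genes with the smallest p were Bhlhe40, a transcriptional repressor induced by low oxygen, Vhl, the ubiquitin ligase subunit, and Car12, another carbonic anhydrase (p 0.0128, 0.118 and 0.134, each adjusted p 1 in limma). Bhlhe40 averaged -0.36 ± 0.32 (SD, n = 3) in the double knock-out and 0.23 ± 0.39 (SD, n = 4) in the wild type. Among the glucose genes they were Slc2a8, a transporter of internal membranes, Pgm2, a phosphoglucomutase, and Pfkfb2, the bifunctional enzyme best known from heart (p 0.0299, 0.101 and 0.181, each adjusted p 1).

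With the mean of the 10 oxygen-responsive genes, the 38 other hypoxia genes correlated at a median of 0.57, with 20 of them (52.6%) over 0.5. The 28 other glucose genes had a median of 0.24 with 6 (21.4%) over 0.5, and all tested non-members had a median of -0.0088 with 14% over 0.5. Of all 17960 non-members, the 5 with the highest correlation were Ampd3, an AMP deaminase (0.99), P4ha2, a collagen prolyl hydroxylase subunit (0.99), Psmb9, a subunit of the immunoproteasome (0.975), Xdh, xanthine dehydrogenase (0.97), and Dram1, a p53 target in autophagy (0.97). Without the 2 arrays farthest from the median these were 0.955 to 0.982. Ampd3 was 2.37 and 1.02 on p27 knock-out 2 and 3 and -1.40 and -1.48 on p27 knock-out 1 and 4. The other 4 were likewise above 0 on p27 knock-out 2 and 3 and below 0 on p27 knock-out 1 and 4, and Psmb9 belongs to the list of interferon genes described next. The message of Hif1a, named here after its values were seen, correlated at 0.89 and ranged from -0.997 on stathmin knock-out 1 to 1.19 on stathmin knock-out 4.

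Markers of other states moved with some of the same cultures. The 5 arrays with the highest median over the 32 genes were also the 5 with the highest median over 20 interferon response genes, which was 1.73 on p27 knock-out 3, 1.32 on stathmin knock-out 4, 0.95 on p27 knock-out 2, 0.34 on double knock-out 1 and -0.28 on stathmin knock-out 3. On the other 10 arrays the interferon median lay between -1.75 and -0.85. Macrophage and blood markers (20 tested of 22, 18 of them well above background on all 15 arrays) had their highest median, 1.87, on p27 knock-out 2, and low medians of -2.73 on p27 knock-out 3, -2.27 on double knock-out 1 and -1.86 on stathmin knock-out 4. Mitosis genes had a median of -1.0 on p27 knock-out 2, 0.79 on p27 knock-out 3 and -0.61 on stathmin knock-out 4, and were lowest on stathmin knock-out 2 (-1.50). The fibroblast marker median stayed between -0.15 and 0.83, and those of the epithelial, endothelial, muscle and neuronal lists between -0.85 and 0.52. The part of these states in the levels of the 32 genes was not tested.

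**Figure D5:**
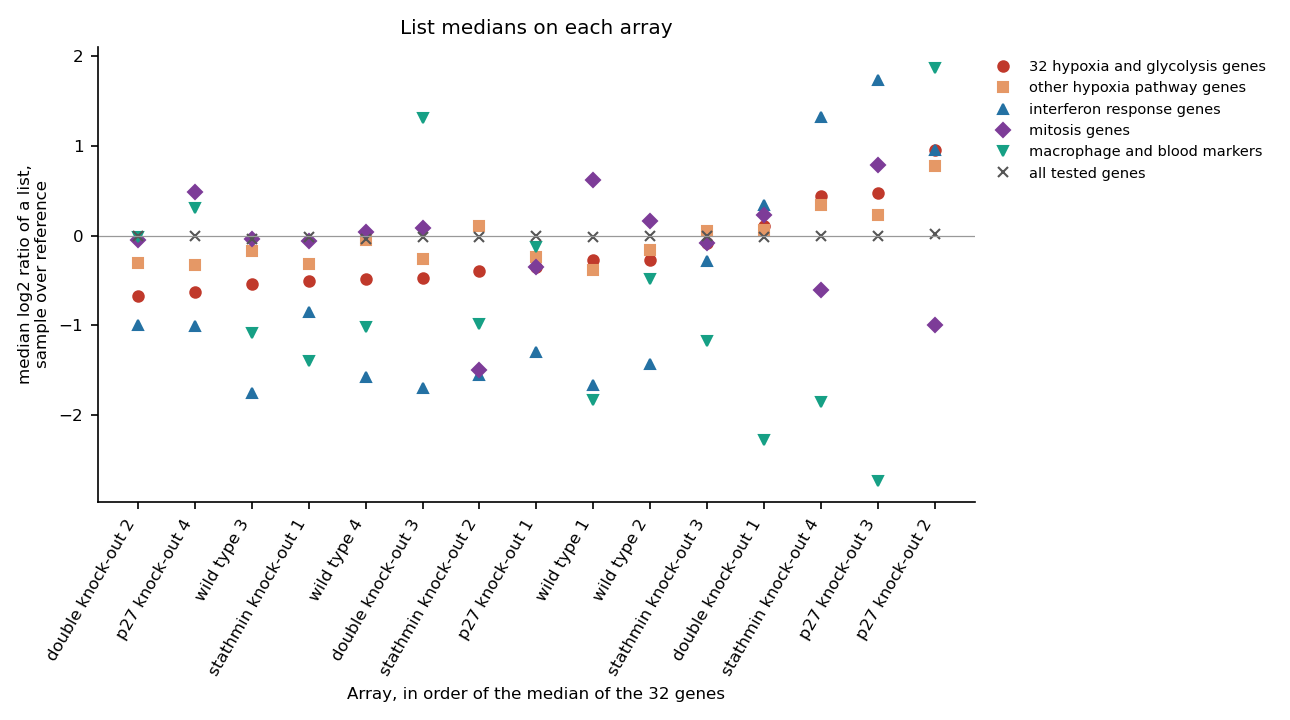
Median log2 ratio of sample over reference (vertical axis) of 6 gene lists on each of the 15 arrays, which are in order of the median of the 32 genes. The interferon genes (blue) and the other hypoxia genes (orange) are highest on the arrays at the right, where the 32 genes (red) reach 0.96; macrophage markers and mitosis genes have no such order, and all tested genes stay near 0.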

How the data were processed

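The authors deposited, for each of 15 two-colour Agilent arrays, the scanner output as intensity per spot and channel, made with Feature Extraction 9.1.3.1 and no background subtraction per the file headers, beside its log10 ratio of red over green. They also deposited a table of log2 ratios of the same arrays, whose normalization is not given in the sources used here (it correlated at 0.821 to 0.936 with the scanner's ratio, with column medians of 0.0039 to 0.0522). Here the mean intensities were background-corrected (normexp, offset 50) and loess-normalised within arrays in limma 3.58.1 (R 4.3.3). Control spots were left out, as were outlier spots (0.0645 to 0.862% of an array), and repeat spots were averaged. Probes entered the fit when 3 or more arrays of some genotype showed the sample well above background, and the brightest tested probe stood for its gene. Tested probes were named by accession (18206), current symbol (4017), older symbol (1906), gene number (157) or as in the files (3414).

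One mean per genotype was fitted by limma (11 residual degrees of freedom), with two-sided moderated tests and Benjamini-Hochberg adjustment over all tested genes. The fit was also run on simulated data with independent noise for each gene. Those data lack the shared variation between arrays seen in the 32 genes, so the run says nothing about it. The interaction is double minus p27 minus stathmin knock-out plus wild type. All 32 genes are named with levels; tests are printed for the 3 genes with the smallest p in each comparison and the 5 with the smallest F test p. From each of the lists of further pathway genes the 3 with the smallest F test p are named, and the 5 non-members that correlated most with the oxygen-responsive genes. Genes and lists were chosen with earlier results of these data known. The alternatives tried are named with the dependence of the results on them. Arrays of a genotype always lay at one position of a slide, so that genotype cannot be told apart from position.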

Additional observations from a re-analysis of the deposited data

Results flagged for a closer look

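In groups of 4 arrays, 1 array stood apart from the other 3 by Dixon's criterion in 2 of 94 groups of a gene and a genotype, where chance alone flags about 1 in 20. Aldoa was at 0.0403 on wild type 3, beside 0.36 to 0.41 on the other wild type arrays. Ankrd37 was at -0.0775 on wild type 2, beside -1.22 to -1.11 on the other wild type arrays.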

How the results depend on the processing

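Under 14 alternatives (background correction, centring, the authors' deposited table, dim-probe filters, probe choice, slide block, replicate block, only the genotypes compared, wild type 3 and 4 averaged, variance trend, array weights, sample channel alone) and with each of 15 arrays left out, 0 of the 32 genes were called by limma in every comparison. The smallest adjusted p of any of them was 0.0895, in the double knock-out against the wild type; over all genes, 0 to 11 were called. The median difference ranged from 0.199 to 0.703 for p27 knock-out minus wild type, -0.015 to 0.441 for stathmin knock-out minus wild type and -0.29 to 0.18 for double knock-out minus wild type. It ranged from -0.899 to -0.186 for double minus p27 knock-out, -0.522 to 0.00512 for double minus stathmin knock-out, 0.00943 to 0.585 for p27 minus stathmin knock-out and -1.04 to -0.42 for the interaction. Where a range crosses 0, the median took either sign; the differences printed for single genes kept their direction in all these settings. Double knock-out minus wild type was 0.0573 with slide as a block, 0.0773 with median centring and -0.092 with array weights. Array weights gave 0.441 for stathmin knock-out minus wild type, -0.689 and -0.491 for double knock-out minus the p27 and the stathmin knock-out, 0.129 for p27 minus stathmin knock-out and -1.04 for the interaction. For p27 minus stathmin knock-out the sample channel alone gave 0.198, and for double minus stathmin knock-out median centring gave -0.0877. Same-numbered arrays correlated over 0.1 in 12 of 21 pairs, more often than arrays of different numbers (18 of 63 pairs). Arrays of the same slide did so in 10 of 21 pairs, and 5 arrays were closest to one of their own number. The labels do not say what a number shares, and whether same-numbered arrays share a batch was not tested. The fit without a block was kept, with slide and replicate blocks as alternatives. With the replicate block 0 of the 32 genes were called, and the median of double knock-out minus wild type was -0.0117 against 0.0128. The interaction and F test could not be fitted on only the genotypes compared. Saturation limits the sample signal of Pgk1 and Ldha.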
